A study of Mus musculus with 2 samples.

Results

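The 10 genes described here encode the enzymes that make superoxide, hydrogen peroxide and nitric oxide in the colon wall: the NADPH oxidase subunits Nox1, Nox4, Cybb, Cyba, Noxo1 and Noxa1, the dual oxidases Duox1 and Duox2 with the maturation factor Duoxa2, and inducible nitric oxide synthase, Nos2. They were picked by symbol from the 43346 Ensembl genes of the deposited tables, and all 10 were found. The tables come from poly(A)-selected RNA of sigmoid colon from a single C57BL/6J female aged 10 weeks, sequenced as 2 technical libraries of 1 biological replicate. Library 2 is technical replicate 2, which the labels date to 2015 and place outside the original publication, and library 1 is technical replicate 1. The animal carried no stated allele or treatment, and there is no second group, so every difference below is between 2 libraries of 1 mouse and has neither a replicate check nor a p-value.

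The NADPH oxidases are membrane proteins that pass electrons from NADPH to oxygen. NOX1 is the form of the colon epithelium and works with the membrane partner p22phox (Cyba), the organizer NOXO1, the activator NOXA1 and a RAC GTPase, while the phagocyte form NOX2 (Cybb) uses p22phox with its own cytosolic factors. The dual oxidases make hydrogen peroxide at the luminal face of epithelia and leave the endoplasmic reticulum only with a maturation factor encoded next to them. Nos2 is known as a gene induced by microbial products and interferon gamma, and its enzyme makes nitric oxide from arginine.

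The coding sequence of the 4 genes of the NOX1 complex differs in base composition. The comparison of the libraries below uses the GC content of whole transcripts instead. The first 120 coding bases of the protein-coding transcript numbered 201 of each gene, from GENCODE M21, are printed 5′ to 3′ with the start codon in capitals.
Nox1-201: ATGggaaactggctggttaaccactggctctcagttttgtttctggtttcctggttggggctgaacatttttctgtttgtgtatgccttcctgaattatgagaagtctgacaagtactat
Noxo1-201: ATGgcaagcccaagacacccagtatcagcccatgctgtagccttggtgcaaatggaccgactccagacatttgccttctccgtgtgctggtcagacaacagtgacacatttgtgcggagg
Noxa1-201: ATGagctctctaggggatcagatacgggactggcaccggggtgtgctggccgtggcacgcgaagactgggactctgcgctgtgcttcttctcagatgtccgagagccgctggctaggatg
Cyba-201: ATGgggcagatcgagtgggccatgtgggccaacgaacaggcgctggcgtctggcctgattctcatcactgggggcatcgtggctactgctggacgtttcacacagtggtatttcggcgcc
GC bases made up 42.5% of this stretch in Nox1-201, 54.2% in Noxo1-201, 61.7% in Noxa1-201 and 60.8% in Cyba-201. Over the whole coding sequence the same order was kept except at the top, with 46.3% in Nox1-201, 56.7% in Noxo1-201, 57.1% in Noxa1-201 and 59.9% in Cyba-201.

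RefSeq (GRCm38.p6) gave a window before the start site for 9 of the 10 genes, and none for Nos2. The window of Nox1 is shown because this gene encodes the catalytic subunit, and that of Duoxa2 because it lies between Duoxa2 and Duox2, which were both called in the comparison below. The 250 bases before the start of Nox1 lie at chrX:134111855-134112104 on the minus strand, inside introns of Nox1-203 and Nox1-205, transcripts that start farther upstream. The capitals mark matches on either strand to the CDX-type motif TTTATG or to the letters TGATAA that GATA factors bind.
Nox1 upstream window: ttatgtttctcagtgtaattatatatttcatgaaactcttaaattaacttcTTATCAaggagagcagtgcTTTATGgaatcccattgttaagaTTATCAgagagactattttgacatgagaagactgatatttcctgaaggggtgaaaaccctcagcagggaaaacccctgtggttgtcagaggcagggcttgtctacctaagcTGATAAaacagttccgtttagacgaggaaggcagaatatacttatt
The CDX-type match began 180 bases before the start. The GATA-type motif matched on the gene's strand 46 bases before the start and on the other strand, as TTATCA, at 157 and 199 bases. It also matched, on either strand, in the windows of Cyba, Cybb and Duox1, which are not printed. Of 32851 mouse windows of this kind, 10.8% held TTTATG and 7.9% held TGATAA on either strand. The window of Duoxa2 lies at chr2:122298650-122298899 on the plus strand, within the 450 bases between the 2 genes, of which Duox2 is read in the opposite direction. Its capitals mark TATAAA, the TATA box, 30 bases before the start, a motif found in 12.4% of all windows on either strand.
Duoxa2 upstream window: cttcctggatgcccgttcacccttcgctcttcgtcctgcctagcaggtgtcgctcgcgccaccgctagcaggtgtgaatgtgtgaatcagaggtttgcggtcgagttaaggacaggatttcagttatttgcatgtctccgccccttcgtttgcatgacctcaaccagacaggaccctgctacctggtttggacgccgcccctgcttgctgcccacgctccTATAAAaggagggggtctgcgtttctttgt
GC content was 38.0% in the Nox1 window and 56.4% in the Duoxa2 window. A match is a run of letters and no measured binding. The STAT-type motif TTCNNNGAA, held by 7.0% of all windows, was in neither printed window but matched in that of Nox4.

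Levels are given in TPM, the authors' deposited measure of abundance per transcript length and per library. The ratio of the libraries moved with GC content, as given below. Orders of genes and multiples between genes therefore describe these libraries only. The summed level of the 10 genes was 314.31 TPM in library 2 and 36.32 TPM in library 1, a mean of 175.3 ± 196.6 TPM (SD, n = 2 technical libraries). Mitochondrial genes took 12.6% of all TPM in library 2 and 44.2% in library 1, and nuclear protein-coding genes took 75.3% in library 2 and 31.3% in library 1. Rescaled to the nuclear protein-coding genes alone, the sum was 417.2 TPM in library 2 and 115.9 TPM in library 1. The tables summed to 20681575 expected counts in library 2 and 25843064 in library 1.

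The tissue label was checked against markers. All 8 epithelial markers, all 6 colonocyte markers and all 6 goblet cell markers on the lists were detected in both libraries, with summed levels of 28522 TPM in library 2 and 4631 TPM in library 1 for the goblet cell list. The smooth muscle list summed to 4791 TPM in library 2 and 327.5 TPM in library 1. Squamous epithelial markers summed to 1.29 TPM in library 2 and 0.06 TPM in library 1. Thyroid markers, relevant because dual oxidases also serve the thyroid, summed to 7.22 TPM in library 2 and 1.34 TPM in library 1. Pax8 alone gave 6.15 TPM in library 2 and 0.67 TPM in library 1. In bulk tissue, fewer cells of a type and less RNA per cell cannot be told apart.

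**Figure D1:**
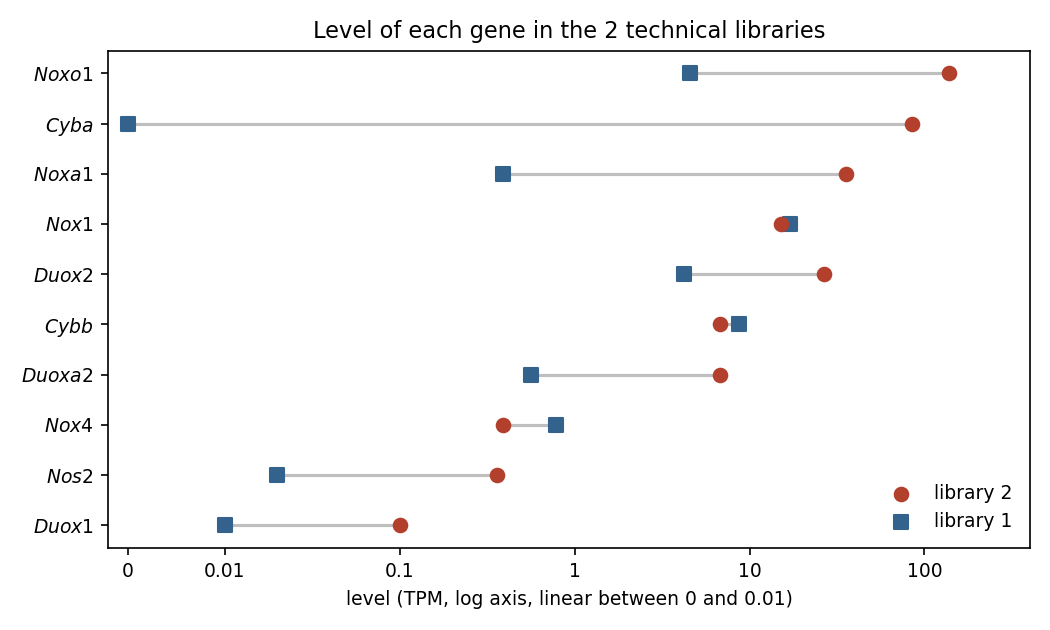
Level of each of the 10 genes in TPM on a log axis that is linear between 0 and 0.01, ordered by the mean of the libraries, with circles for library 2 and squares for library 1. Noxo1 stands at 137.52 TPM in library 2 and 4.55 TPM in library 1, Cyba is listed at 0 in library 1, and Nox1 and Cybb have nearly the same TPM in both libraries.

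By the mean of the libraries the order was Noxo1, Cyba, Noxa1, Nox1, Duox2, Cybb, Duoxa2, Nox4, Nos2 and Duox1. Of the 9 neighbouring pairs in that order, 7 had ranges that overlapped between the libraries. The exceptions were Cybb above Duoxa2, by the narrow margin of 6.81 TPM against 6.80 TPM, and Nox4 above Nos2. Library 2 alone gave the same order except that Duox2 stood above Nox1. In library 1 the order was led by Nox1, Cybb, Noxo1 and Duox2, and no gene held the place it had in the order by the mean. Nox1 made up 4.81% of the summed level in library 2 and 47.1% in library 1, and Noxo1 made up 43.8% in library 2 and 12.5% in library 1.

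To set the libraries side by side, expected counts were scaled by the trimmed mean of M values, and a gene was called when its scaled count differed at least 2-fold. Genes with a mean of at least 10 expected counts entered, which kept 9 of the 10 genes and left out Duox1. Intervals are exact binomial 95% intervals of the ratio and cover counting error only. Of the 9 genes, 6 were called higher in library 2 (Noxo1, Noxa1, Cyba, Duox2, Duoxa2 and Nos2) against a background of 37.2% of 15711 genes, and 3 were called lower (Nox1, Cybb and Nox4) against a background of 28.3%. None stayed within 2-fold. Cyba and Nos2 reached the count minimum only through library 2, so the minimum itself required them to be higher there, and their calls are a description. The median log2 ratio was 2.40 over the 9 genes, Cyba and Nos2 among them, and 0.12 over all genes tested.

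**Figure D2:**
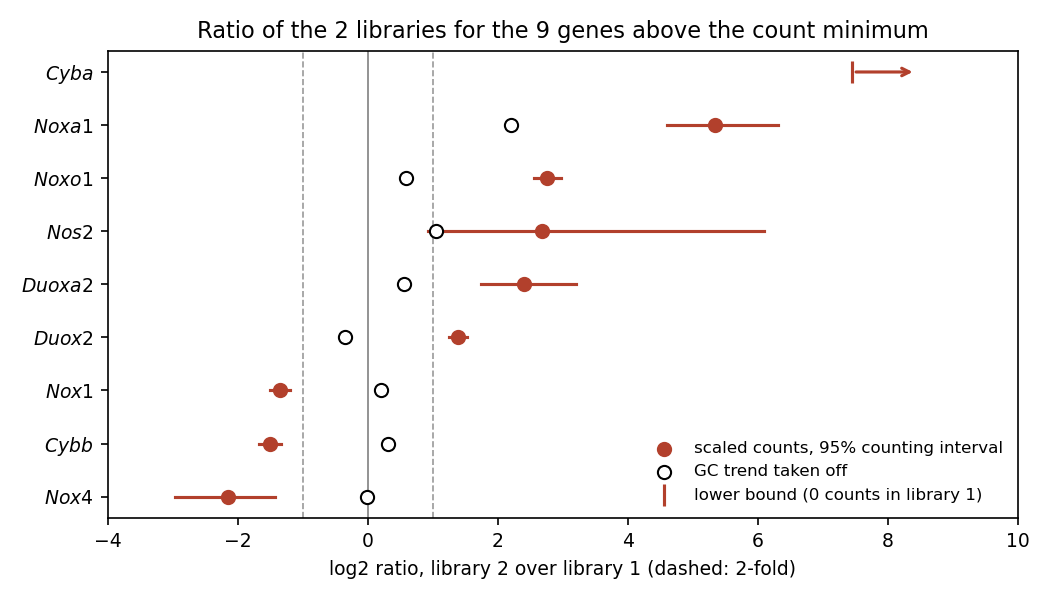
Log2 ratio of scaled counts, library 2 over library 1, for the 9 genes above the count minimum. Filled points carry the 95% counting interval, open points are the same ratios with the GC trend taken off, and the bar with an arrow is the lower bound of Cyba. Filled points of 5 genes lie right of 0 and those of Nox1, Cybb and Nox4 left of it, and the open points of Nox1, Cybb and Duox2 lie on the other side of 0 from their filled points.

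GC content moved with these ratios. The 6 genes called higher had transcripts with 53.9% to 59.3% GC, and the 3 called lower had 40.4% to 43.8%, beside a median of 49.9% over the genes tested. Across 15664 genes with a known GC content, Spearman's rho of the log2 ratio with GC content was 0.90, and across the 15711 genes tested its rho with effective length was -0.27. These are correlations across genes that share 2 libraries, and genes are not independent replicates. With the lowess trend on GC content taken off, 3 of the 9 genes were higher by at least 2-fold (Cyba, Noxa1 and Nos2) beside 18.3% of all genes, and 0 were lower beside 9.53%. Cyba and Nos2 among them reached the count minimum only through library 2. The median log2 ratio of the 9 genes, 2.40 before, was then 0.56.

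**Figure D3:**
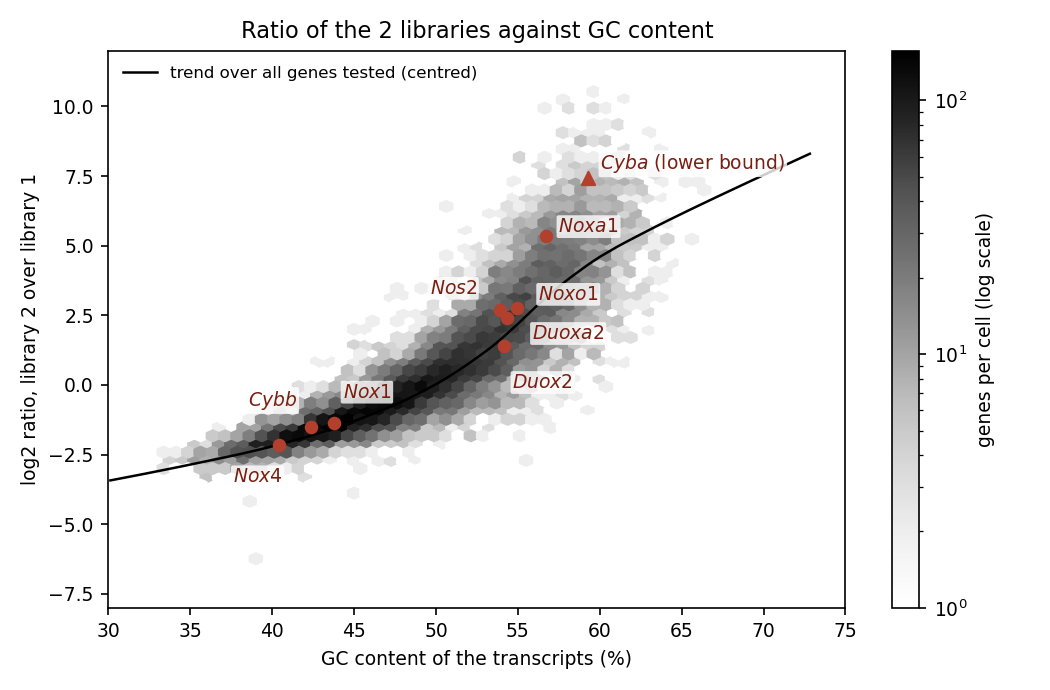
Log2 ratio of library 2 over library 1 against the GC content of the transcripts for the genes tested, with darker cells holding more genes and the line showing the centred lowess trend. Nox1, Cybb and Nox4 lie at 40.4% to 43.8% GC below 0, the other genes at 53.9% to 59.3% GC above 0, and Cyba (triangle) is drawn at its lower bound.

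Nox1, the catalytic subunit (ENSMUSG00000031257.10, X:134086421-134221956, minus strand), had 15.11 TPM in library 2 and 17.11 TPM in library 1, from 513 expected counts in library 2 and 973 in library 1. Its TPM was thus nearly equal between the libraries, while its scaled count was 2.55-fold lower in library 2 (95% counting interval 2.29 to 2.85). Scaling by library totals gave a log2 ratio of -0.60 and the deposited TPM gave -0.18, which end the call, and with the GC trend taken off the ratio turned to 0.20. Among the 5 Nox1 transcripts listed, Nox1-201 carried 97.6% of the gene's TPM in library 2 and 99.1% in library 1. The 399 exonic bases that Nox1 shares with Cstf2, a cleavage stimulation factor gene on the opposite strand, are counted without a stated strand setting. Cstf2 had 16.78 TPM in library 2 and 19.57 TPM in library 1, and its part in the Nox1 counts was not tested.

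Noxo1, the organizer that anchors the NOX1 complex at the membrane (ENSMUSG00000019320.9, 17:24696234-24700529, plus strand), had 137.52 TPM in library 2 and 4.55 TPM in library 1. The counts were 1843 in library 2 and 202 in library 1, and the scaled count was 6.76-fold higher in library 2 (95% counting interval 5.86 to 7.87). With the GC trend taken off the log2 ratio was 0.58, which ends the call, against 2.76 before. By TPM, Noxo1 ranked 825th among the nuclear protein-coding genes in library 2 and 6813th in library 1. The 9 transcripts listed for Noxo1 did not share this difference alike. Noxo1-201, which GENCODE M21 marks as protein coding, had 9.18 TPM in library 2 and 3.84 TPM in library 1. It thus carried 6.67% of the gene's TPM in library 2 and 84.35% in library 1. By the authors' posterior mean TPM, an alternative estimate, its share was 6.58% in library 2 and 53.7% in library 1. The retained-intron transcript Noxo1-202 had 40.54 TPM in library 2 and 0.12 TPM in library 1, and Noxo1-203, also a retained intron, had 24.28 TPM in library 2 and 0.08 TPM in library 1. The short processed transcript Noxo1-206 had 24.78 TPM in library 2 and was listed at 0 in library 1. Most of the Noxo1 level of library 2 was therefore assigned to transcripts with no annotated coding sequence.

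Noxo1 shares 2122 exonic bases with Tbl3, a gene for a WD-repeat protein on the opposite strand. Tbl3 had 12.78 TPM in library 2 and 0.02 TPM in library 1, from 333 expected counts in library 2 and 2 in library 1. Since the strand setting is not given in the sources used here, reads of Noxo1 and Tbl3 cannot be told apart, and the part of Tbl3 in the Noxo1 values was not tested.

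**Figure D4:**
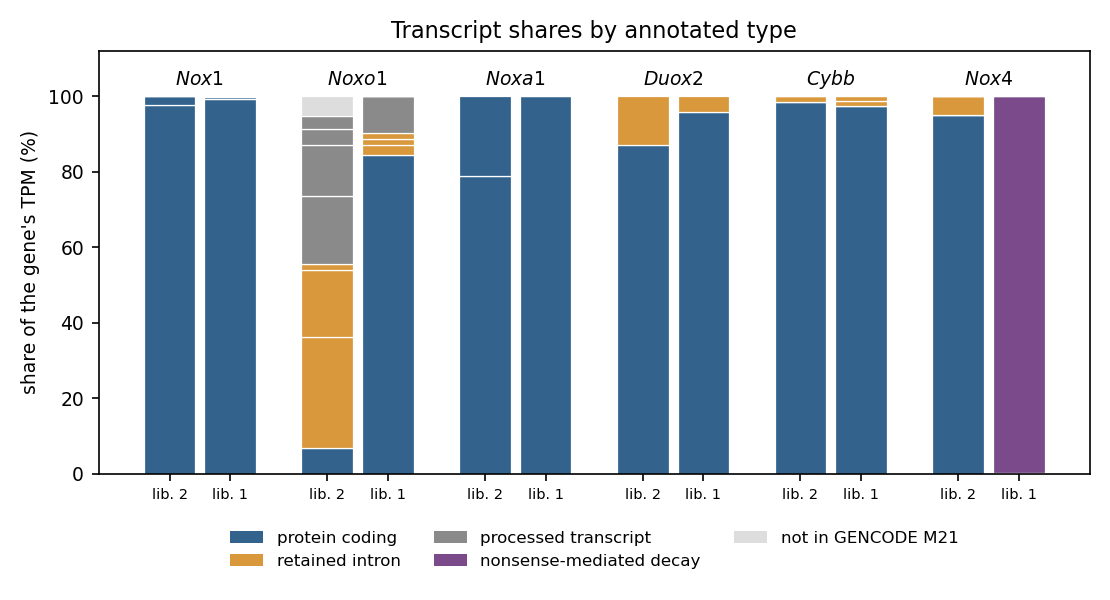
Share of each gene's TPM in percent by annotated transcript type, with library 2 left of library 1 for each gene and white lines between transcripts of 1 type. Protein-coding transcripts carry over 87% of Nox1, Noxa1, Duox2 and Cybb in both libraries, 6.67% of Noxo1 in library 2 and 84.35% in library 1, and 94.97% of Nox4 in library 2 and 0.13% in library 1.

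Noxa1, the activator (ENSMUSG00000036805.9, 2:25085667-25095149, minus strand), had 35.79 TPM in library 2 and 0.39 TPM in library 1, from 735 expected counts in library 2 and 13 in library 1. The scaled count was 40.5-fold higher in library 2 (95% counting interval 24.4 to 79.2), and the log2 ratio was 5.34, or 2.21 with the GC trend taken off. Both transcripts of Noxa1 are protein coding. Noxa1-201 carried 78.76% of the gene's TPM in library 2 and was listed at 0 in library 1, where the 13 counts were all assigned to Noxa1-202. The authors' posterior mean TPM, an alternative estimate in the same tables, split the 2 transcripts 45.2% and 54.8% in library 1, so the assignment of 13 counts was loose. Noxa1 shares 50 exonic bases with Entpd8, an ectonucleotidase gene on the opposite strand at 167.43 TPM in library 2 and 12.82 TPM in library 1.

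Cyba, which encodes p22phox, the membrane partner of NOX1, NOX2, NOX3 and NOX4 (ENSMUSG00000006519.10, 8:122424776-122432930, minus strand), had 84.69 TPM in library 2 and was listed at 0 in library 1. Library 2 held 705 counts of Cyba and library 1 held 0, which allows up to 0.219 TPM at 3 counts. Against that limit of 3 counts in library 1, the scaled count was at least 174.5-fold higher in library 2. The authors' posterior mean TPM was 79.87 in library 2 and 0.07 in library 1, with a deposited upper bound of 0.21 TPM in library 1. Cyba was 1 of 16 genes with at least its count in library 2 and 0 counts in library 1, and their transcripts held 56.6% to 69.1% GC. Those with the most counts in library 2 were Hba-a1, Ndufa13 and Uqcr11, named here after their values were seen. In library 2 Hba-a1 had 562.66 TPM, Ndufa13 114.71 TPM and Uqcr11 421.31 TPM, and all were at 0 in library 1. The cause of the 0 counts was not tested. Cyba itself had 59.3% GC, the most of the 10 genes, and a log2 ratio of 5.72 remained with the GC trend taken off, a fitted value that depends on the prior count.

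Within a library, Nox1 was the lowest of the 4 genes of the NOX1 complex in library 2 and the highest in library 1, and Noxo1 was above Noxa1 and Cyba in both. In library 2 the TPM of Noxo1 was 9.10 times that of Nox1, that of Noxa1 was 2.37 times and that of Cyba 5.60 times. In library 1, Nox1 led, at 3.76 times the TPM of Noxo1 and 43.9 times that of Noxa1.

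Cybb, the catalytic subunit of the phagocyte oxidase (ENSMUSG00000015340.6, X:9435252-9487771, minus strand), had 6.81 TPM in library 2 and 8.68 TPM in library 1, from 442 expected counts in library 2 and 932 in library 1. Its scaled count was 2.84-fold lower in library 2 (95% counting interval 2.53 to 3.19). Library totals gave a log2 ratio of -0.75, the deposited TPM -0.35 and the length trend taken off -0.81, each of which ends the call, and the GC trend taken off turned it to 0.31. The TPM of Nox1 was 2.22 times that of Cybb in library 2 and 1.97 times in library 1, and both genes are of low GC content. Cybb-201 carried 98.5% of the gene's TPM in library 2 and 97.3% in library 1.

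Of 7 macrophage markers, 5 were called higher in library 2, 1 lower and 1 neither, beside the backgrounds of 37.2% and 28.3%. With the GC trend taken off 4 were higher and 0 lower, beside 18.3% and 9.53% of all genes. Their summed level was 246.33 TPM in library 2 and 28.6 TPM in library 1. The complement genes C1qa, C1qb and C1qc had 59.44 to 66.91 TPM in library 2 and 0.55 to 1.56 TPM in library 1, and Mrc1, the mannose receptor gene at 39.5% GC, had 9.62 TPM in library 2 and 18.93 TPM in library 1 and was called lower, as Cybb was. Of 8 neutrophil markers, 5 passed the count minimum. Of these, 2 were called higher in library 2, 1 lower and 2 neither, beside the backgrounds of 37.2% and 28.3%. Once the GC trend was taken off, 4 of the 5 were higher and 0 lower, beside 18.3% and 9.53% of all genes. Ly6g made up most of the list's sum, at 119.51 TPM in library 2 and 33.18 TPM in library 1. S100a8, the 1 called lower, had 2.6 TPM in library 2 and 3.66 TPM in library 1. Its call ended at a log2 ratio of -0.22 with the GC trend taken off. Elane, Camp and Ngp, made in immature neutrophils, had at most 0.33 TPM in library 2 and were listed at 0 in library 1. The part of these cells in the Cybb values was not tested.

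Cytosolic partners of the phagocyte and NOX1 oxidases did not all share the direction of Cybb. Ncf1 (p47phox), the organizer of the phagocyte oxidase, had 6.53 TPM in library 2 and 1.07 TPM in library 1. Ncf4 (p40phox) had 9.81 TPM in library 2 and 0.28 TPM in library 1. Both were called higher in library 2, while Cybb, their catalytic partner, had a lower scaled count. Ncf4 reached the count minimum only through library 2, so its call is a description. With the GC trend taken off the log2 ratio of Ncf1 was 0.26, which ends its call, beside 0.31 for Cybb and 3.97 for Ncf4, which had 1 count in library 1. Rac1, the widely expressed RAC GTPase, had 269.88 TPM in library 2 and 144.61 TPM in library 1 and stayed within 2-fold by scaled count, and the blood-cell form Rac2 had 7.94 TPM in library 2 and 0.51 TPM in library 1. Rap1a, a small GTPase found with cytochrome b558, had 58.16 TPM in library 2 and 132.74 TPM in library 1, and its scaled count was 5.13-fold lower in library 2, with a log2 ratio of 0.01 once the GC trend was taken off. Cybc1, a chaperone needed for NOX2 and p22phox, had 33.59 TPM in library 2 and 4.29 TPM in library 1, a scaled count 3.38-fold higher in library 2.

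Nox4, a constitutively active oxidase that needs p22phox and no cytosolic factor (ENSMUSG00000030562.12, 7:87246096-87398710, plus strand), was low, with 0.39 TPM in library 2 and 0.78 TPM in library 1, from 20 expected counts in library 2 and 67 in library 1. Its scaled count was 4.43-fold lower in library 2 (95% counting interval 2.70 to 7.85). The GC trend taken off left a log2 ratio of -0.01, and the deposited TPM gave -0.98, just short of a 2-fold difference. Nox1 stood at 38.7 times the TPM of Nox4 in library 2 and at 21.9 times in library 1. The transcript assigned to Nox4 differed between the libraries. The protein-coding Nox4-201 carried 94.97% of the gene's TPM in library 2, and Nox4-205, annotated for nonsense-mediated decay, carried 99.87% in library 1. The 2 transcripts are 3753 and 3749 bases long, and the posterior mean TPM gave each of them 34.0% in library 1, so this difference in assignment rests on the estimate used. Nox3, the oxidase of the inner ear, had 0 counts in both libraries.

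Duox2, the dual oxidase of the gut epithelium (ENSMUSG00000068452.7, 2:122279247-122298449, minus strand), had 26.74 TPM in library 2 and 4.22 TPM in library 1, from 1925 expected counts in library 2 and 546 in library 1, the largest count of the 10 genes in library 2. Its scaled count was 2.62-fold higher in library 2 (95% counting interval 2.38 to 2.88). The log2 ratio was 1.39, and with the GC trend taken off it reversed to -0.36. Duox2-201, the protein-coding form, carried 87.1% of the gene's TPM in library 2 and 95.9% in library 1, and the rest belonged to the retained-intron transcript Duox2-202, at 3.45 TPM in library 2 and 0.17 TPM in library 1.

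Duoxa2, the maturation factor that DUOX2 needs to reach the cell surface (ENSMUSG00000027225.7, 2:122298900-122302885, plus strand), had 6.80 TPM in library 2 and 0.56 TPM in library 1, from 138 expected counts in library 2 and 19 in library 1. Its scaled count was 5.27-fold higher in library 2 (95% counting interval 3.33 to 9.23), and the GC trend taken off left a log2 ratio of 0.56, which ends the call. The enzyme was above its partner in both libraries, since the TPM of Duox2 was 3.93 times that of Duoxa2 in library 2 and 7.54 times in library 1. Both genes were called higher in library 2, and both lay near 54% GC, at 54.2% for Duox2 and 54.3% for Duoxa2.

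Duox1, the dual oxidase better known from airway and thyroid (ENSMUSG00000033268.8, 2:122315672-122347972, plus strand), had 0.10 TPM in library 2 and 0.01 TPM in library 1, from 7 expected counts in library 2 and 1 in library 1, and was not compared for its low count. Its maturation factor Duoxa1 had 0.05 TPM in library 2, from 1 count, and was listed at 0 in library 1. Duox2, Duoxa2, Duoxa1 and Duox1 lie together in 68726 bases of chromosome 2, with Duoxa1 and Duox1 separated by 1941 bases. Duox2 and Duoxa2 were thus read in both libraries, while their neighbours Duoxa1 and Duox1 stayed at 0.10 TPM or less. By the posterior mean TPM Duoxa1 had 0.55 in library 2 and 0.31 in library 1, beside 6.45 and 0.57 for Duoxa2. The contrast of these 2 genes in library 1 therefore rests on the estimate used. The paired genes Duoxa2 and Duoxa1 share 682 exonic bases on opposite strands, and Duoxa1 held 1 count in library 2 and 0 in library 1.

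Nos2 (ENSMUSG00000020826.6, 11:78920787-78960254, plus strand) had 0.36 TPM in library 2 and 0.02 TPM in library 1, from 21 expected counts in library 2 and 2 in library 1. Its scaled count was 6.39-fold higher in library 2, with a wide 95% counting interval of 1.91 to 68.6 whose lower end is below 2-fold, and the GC trend taken off left a log2 ratio of 1.04. Nos2 thus had counts in both libraries, but its 2 counts in library 1 lie below the limit of 3 counts used for Cyba. The neuronal synthase Nos1, the form of enteric neurons, had 4.58 TPM in library 2 and 1.11 TPM in library 1, which was 12.7 times the Nos2 level in library 2, while the 2 counts of Nos2 in library 1 were too few for such a ratio. The endothelial synthase Nos3 had 1.67 TPM in library 2 and 0.01 TPM in library 1, from 95 counts in library 2 and 1 in library 1. Nos1 was thus the highest of the 3 synthases in both libraries.

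**Figure D5:**
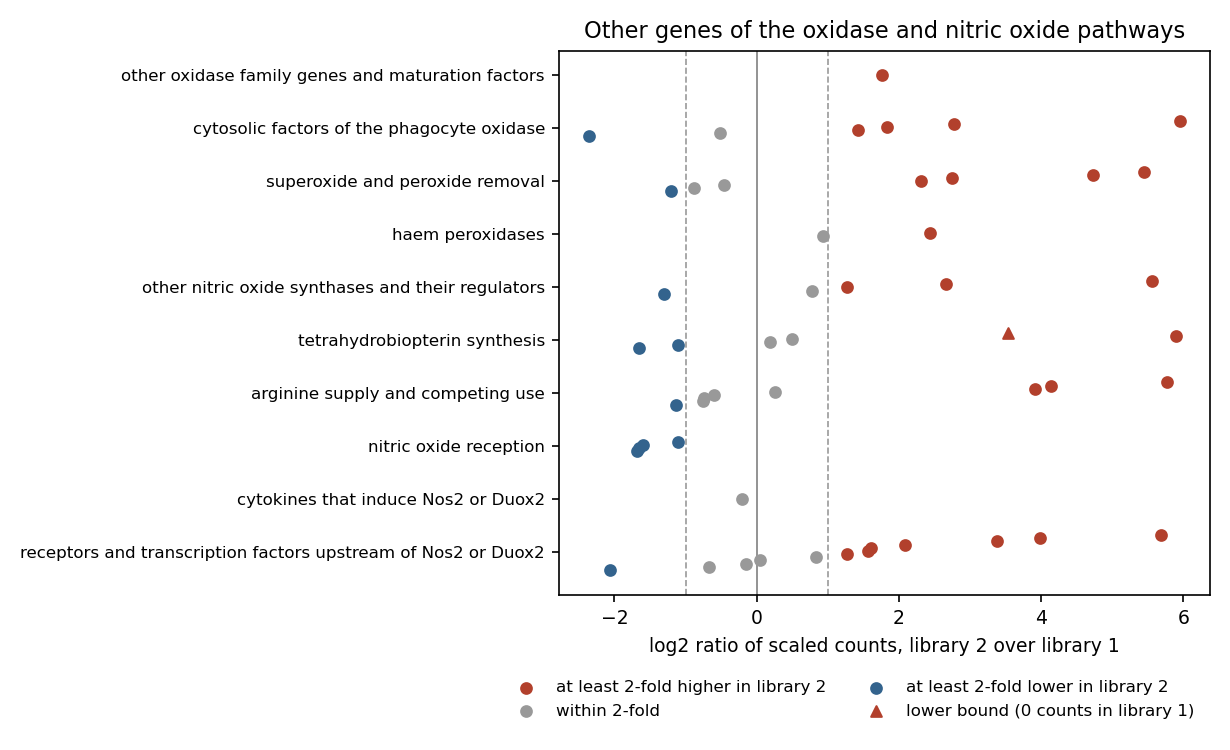
Log2 ratio of scaled counts, library 2 over library 1, for the genes of 10 related lists that passed the count minimum, with red for at least 2-fold higher, grey for within 2-fold and blue for at least 2-fold lower, and a triangle for a gene with 0 counts in library 1, drawn at its lower bound. All 4 genes of nitric oxide reception lie left of -1, and the 1 cytokine gene shown, Il1b, lies at -0.20.

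Around these enzymes, 61 further genes of the oxidase and nitric oxide pathways were counted on 10 lists. Of the 52 that passed the count minimum, 25 were called higher in library 2, 11 lower and 16 neither, beside the backgrounds of 37.2% and 28.3%. Ncf4, Nos3 and Ddah2 are among the genes that reached the minimum only through library 2, which required them to be higher there. Their median log2 ratio was 0.89. With the GC trend taken off 18 were higher and 1 was lower, beside 18.3% and 9.53% of all genes. Beside the same shares, superoxide and peroxide removal had 5 higher and 0 lower of 7 with the trend taken off, and arginine 3 and 0 of 8. Tetrahydrobiopterin had 2 and 0 of 6, and the receptors and transcription factors 3 and 0 of 12. The cytosolic factors had 3 and 0 of 6, the other synthases 1 and 1 of 5 and nitric oxide reception 0 and 0 of 4. Haem peroxidases had 0 and 0 of 2, the cytokines 0 and 0 of 1 and the other oxidase family genes 1 and 0 of 1. All lists were chosen with results of these data known, so these counts describe the genes and test nothing.

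The genes that remove superoxide and peroxide differed widely in level. They ranged from 12.69 to 599.94 TPM in library 2 and from 0.84 to 710.83 TPM in library 1. Of the 7, 4 were called higher in library 2, 1 lower and 2 neither, beside the backgrounds of 37.2% and 28.3%. Sod1, the cytosolic superoxide dismutase, had 599.94 TPM in library 2 and 54.49 TPM in library 1. The glutathione peroxidase genes Gpx1 and Gpx2, the second typical of gut epithelium, had 357.53 and 292.02 TPM in library 2 and 4.67 and 2.98 TPM in library 1. Prdx1, a peroxiredoxin gene at 43.5% GC, had 454.45 TPM in library 2 and 710.83 TPM in library 1 and was the 1 called lower. Among the haem peroxidases, which use hydrogen peroxide, Pxdn had 13.17 TPM in library 2 and 3.18 TPM in library 1, Lpo had 5.25 TPM in library 2 and 0.42 TPM in library 1, and Mpo and Epx were listed at 0 in both libraries.

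Arginine, the substrate of Nos2, is regenerated from citrulline by argininosuccinate synthase and lyase, and both genes were higher in library 2. Ass1 had 42.56 TPM in library 2 and 1.24 TPM in library 1, and Asl had 23.57 TPM in library 2 and 0.71 TPM in library 1. Of the 8 genes of arginine supply and competing use, 3 were called higher, 1 lower and 4 neither, beside the backgrounds of 37.2% and 28.3%. Ddah2, which breaks down an inhibitor of the synthases, had 11.41 TPM in library 2 and 0.08 TPM in library 1, while its relative Ddah1 had 13.88 TPM in library 2 and 9.09 TPM in library 1 and stayed within 2-fold by scaled count. For the cofactor tetrahydrobiopterin, 2 of 6 genes were called higher, 2 lower and 2 neither, beside the same backgrounds. The entry enzyme Gch1 had 9.46 TPM in library 2 and 3.68 TPM in library 1, Pts had 60.39 TPM in library 2 and 58.34 TPM in library 1, Qdpr had 69.97 TPM in library 2 and 21.80 TPM in library 1, and Spr had 56.24 TPM in library 2 and 0.41 TPM in library 1. Regulators of the other synthases gave 50.66 TPM in library 2 and 1.79 TPM in library 1 for Nosip, 38.75 TPM in library 2 and 42.69 TPM in library 1 for Nostrin, and 7.30 TPM in library 2 and 3.29 TPM in library 1 for Nos1ap. With Nos1 and Nos3 this list held 3 genes called higher, 1 lower (Nostrin) and 1 neither, beside the same backgrounds. With the GC trend taken off the list's median log2 ratio was -0.56, against 1.27 before. In the list 1 gene was then higher and 1 lower, beside 18.3% and 9.53% of all genes. Nosip reversed to -1.38 against 2.67, Nos1ap to -0.56 against 1.27 and Nos1 to -0.93 against 0.77. The Nostrin call ended at 0.06.

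Genes that receive the nitric oxide signal shared 1 direction. All 4 listed genes were called lower in library 2, beside a background of 28.3%, with a median log2 ratio of -1.63. The GC trend taken off left a median of -0.02 and no call, beside 9.53% of all genes lower. Pde5a, the phosphodiesterase that ends the cyclic GMP signal, had 34.36 TPM in library 2 and 48.84 TPM in library 1. Gucy1a1 and Gucy1b1, the subunits of soluble guanylate cyclase, had 13.34 and 11.31 TPM in library 2 and 18.72 and 11.35 TPM in library 1, and the kinase gene Prkg1 had 2.78 TPM in library 2 and 3.08 TPM in library 1.

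Cytokines known to induce Nos2 or Duox2 were scarce. Il1b had 3.08 TPM in library 2 and 1.94 TPM in library 1, Tnf had 0.71 TPM in library 2 and 0.11 TPM in library 1, Il22 had 0.07 TPM in library 2 and 0.05 TPM in library 1, and Ifng and Il17a were listed at 0 in both libraries. Receptors of these cytokines were detected in both libraries. Ifngr1 had 222.08 TPM in library 2 and 173.58 TPM in library 1, Ifngr2 had 96.08 TPM in library 2 and 23.33 TPM in library 1, and Il10rb, which the interleukin 22 receptor shares, had 72.24 TPM in library 2 and 31.14 TPM in library 1. Irf1, a transcription factor that interferon gamma induces, had 151.12 TPM in library 2 and 8.83 TPM in library 1. Of the 12 receptors and transcription factors, 7 were called higher in library 2, 1 lower and 4 neither, beside the backgrounds of 37.2% and 28.3%.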

How the data were processed

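Poly(A)-selected RNA of 1 mouse sigmoid colon was sequenced as 2 technical libraries. No p-value is given, since 1 library on each side leaves no spread to test against. Each library has a deposited gene table and transcript table on mm10 with GENCODE M4, per the accompanying text files. Which aligner and quantifier were run, and whether strand was used, is not given in the sources used here. The authors' columns, per the file headers, are expected counts, TPM, FPKM, posterior mean TPM with interval bounds, and the percent of a gene's level held by each transcript.

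Expected counts were rounded to whole counts and then scaled by TMM over genes with a mean of at least 10 counts (edgeR 4.0.16, R 4.3.3, prior count 0.5), giving an effective size of library 2 at 1.35 times that of library 1. A gene was called at a ratio of at least 2. Exact conditional binomial 95% intervals cover counting error only, as do limits at 3 counts, since reads are not independent molecules. The lowess trends on GC content (fraction 0.2) used GENCODE M21 transcripts, found for 99.7% of tested genes. The ratios were checked on simulated data. Symbols and positions came from GENCODE M21 on GRCm38, the assembly of mm10. Of the tables' 69691 entries, 26345 were no Ensembl genes and held 1 count in library 2 and 0 in library 1; they were left out.

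Every gene of the 10 is named, with direct partners, the up to 4 genes of highest mean TPM per related list, and listed genes at 0, except for some listed genes that are not reported here. The members and lists were chosen with earlier results of these data known. Likeness of pattern to other genes was not measured, since 2 libraries give 1 difference per gene. Alternatives covered the scaling (DESeq2 1.42.0 size factors, library totals, TPM), the count minimum, the prior count, the fold, and GC and length trends.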

Additional observations from a re-analysis of the deposited data

How the results depend on the processing

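The summed level was 36.32 to 314.31 TPM when either library was left out, 266.5 TPM over nuclear protein-coding genes and 170.0 TPM from the posterior means. Of 11 alternatives, the count of genes called higher moved by more than 1.5 times only with the GC trend taken off, to 3. The count called lower was 1 by library totals, 0 by the deposited TPM, 1 at a 4-fold threshold and 0 with the GC trend taken off. Of all genes, 7.42% were lower at 4-fold, and with the GC trend taken off 18.3% were higher and 9.53% lower. The GC trend also turned the log2 ratio of Nox1 to 0.20, of Cybb to 0.31 and of Duox2 to -0.36. The cause of these moves was not tested. The median log2 ratio of all genes was 0.12 by TMM, 0.06 by size factors, 0.87 by library totals and 1.24 by the deposited TPM, with 47.8% of genes higher and 12.0% lower by totals and 54.3% higher and 5.23% lower by TPM. Of 79 ratios of single genes, 3 reversed and 21 moved outside their counting interval. The 79 include those under other count minimums, which by construction leave each ratio as it was. No paired analysis was possible because the libraries form 1 group. Depth limits Nos2, Duox1, Nox4 and Duoxa2, each with at most 138 counts in a library.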
